A study of Mus musculus with 9 samples.

Results

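The levels of 36 genes of glycolysis and of the response to low oxygen were followed through 9 RNA sequencing libraries of mouse mammary tumour cell lines that carried or lacked a working Jak1 gene, whose product, Janus kinase 1, relays cytokine signals from receptors to STAT transcription factors. The genes were taken by symbol, from a list chosen with earlier results of these data known, so their counts beside those of all genes are descriptive. All 36 were found among the 24344 gene symbols of the table. They comprised 4 glucose and lactate transporters, 16 enzymes from hexokinase to pyruvate kinase, 3 enzymes that set the fate of pyruvate, 3 genes of the hypoxia-inducible factor (HIF) and its prolyl hydroxylases, and 10 further HIF target genes. Every value below is in FPKM, fragments scaled by transcript length and library size, so levels of different genes can be set side by side.

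All 9 libraries were made from cell lines derived from tumours of FVB/N mice that arose under MMTV-neu, a transgene in which the mouse mammary tumour virus promoter drives the neu (Erbb2) oncogene in mammary epithelium. Lines 45555, 47298 and 45566B were each sequenced once as Jak1 wild type and once as Jak1 knockout, with titles that name the states Wt and Cre, and these 3 lines had been treated with puromycin. The sources used here do not say how Cre was delivered or whether a line is 1 clone. Lines 33373 and 33377 were sequenced as Jak1 wild type only, and line 46295, titled 46295-D6, as Jak1 knockout only. All were kept as adherent cultures with serum, added insulin, EGF and hydrocortisone, and the labels name no oxygen level. With 1 library for each line and state, no spread between cultures of a line can be given. In the comparison of Jak1 states inside lines, a p-value is set against how much the difference between states varied from line to line. Where states are compared without the line in the fit, it is set against the spread between libraries of a state. The 2 libraries of 45566B then count as independent. In the comparison of lines it is set against what is left once line and state are fitted. Jak1 itself stood at 86.7 FPKM as wild type and 74.4 as knockout in 45555, 63.1 and 27.5 in 47298, and 16.1 and 14.2 in 45566B, and at 19.4 FPKM in 33373, 54.6 in 33377 and 23.0 in 46295 knockout, values over the whole gene that cannot resolve a deleted part. The deposited values hold no counts, and relative depth, taken from the steps between low values, ran from 0.416 (46295) to 1.00 (45566B wild type).

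The lines were not alike in cell type. The summed level of 10 epithelial markers was 3141 and 3154 FPKM in the 45566B libraries, 2625 in 33373 and 3164 in 46295, but 7.18 and 7.50 in 45555 and 163 in 33377. In 47298 it was 100.1 in wild type and 415 in knockout, while 10 mesenchymal markers summed to 9115 and 2559 and 6 adipocyte markers to 1344 and 56.0. Most of the epithelial sum in 47298 came from Krt8 (38.5 FPKM in wild type, 157 in knockout) and Krt18 (52.7 and 250). Krt19 went the other way, from 5.97 to 0.307 FPKM. Of the 10 epithelial markers 6 were under 1 FPKM in 47298 wild type and 7 in its knockout. In 33377, too, the sum was mostly Krt8 (74.9 FPKM) and Krt18 (74.8). The mesenchymal sum was 8897 and 7653 in 45555 without and with the knockout, and 125 and 209.8 in 45566B. Of 6 leukocyte markers, 5 were under 1 FPKM in every library, and the sixth, the lysosomal gene Cd68, was at 106 FPKM in 46295 knockout, 17.7 in 33373 and 0.426 to 8.84 in the other 7. In such bulk RNA a smaller share of cells of a type and less RNA per cell cannot be told apart.

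Glycolysis splits glucose into pyruvate in the cytosol, with hexokinase, phosphofructokinase and pyruvate kinase as its irreversible steps. Lactate dehydrogenase turns pyruvate into lactate, which leaves the cell through monocarboxylate carriers. HIF is a pair of proteins, a regulated alpha subunit encoded by Hif1a or Epas1 and a constant partner encoded by Arnt. When oxygen is present, prolyl hydroxylases of the Egln family mark the alpha subunit for destruction, and when it is scarce the factor accumulates and drives glycolytic enzymes, angiogenic factors and its own hydroxylases. Because that control acts on the protein, the Hif1a transcript is not a measure of HIF activity. Tumour cells often run glycolysis fast even with oxygen present.

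The 16 enzymes summed to 6846 and 5822 FPKM in 45555 without and with the knockout, 3535 and 4298 in 47298, and 3004 and 2905 in 45566B. The sum was 5084 FPKM in 33373, 5197 in 33377 and 3781 in 46295 knockout. In FPKM both 45566B libraries were the lowest of the 9 and both 45555 libraries the highest, and the knockout library was the lower one in 45555 and 45566B and the higher one in 47298. As a share of each library's summed FPKM the order differed. There the enzymes took 1.01% and 0.877% in 45555, 0.490% and 0.752% in 47298 and 0.490% and 0.506% in 45566B, wild type first, so that 47298 wild type was about level with 45566B, 45566B knockout was above its wild type, and 33373 (0.896%) was above 45555 knockout. The 10 further HIF targets, with far lower levels, summed to 1123 and 497 FPKM in 45555 without and with the knockout, 859 and 234 in 47298, and 183 and 179.7 in 45566B. Their sum was 245 FPKM in 33373, 241 in 33377 and 305 in 46295 knockout. As a share of the library these targets, too, were slightly higher in 45566B knockout (0.0313%) than in its wild type (0.0299%).

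**Figure D1:**
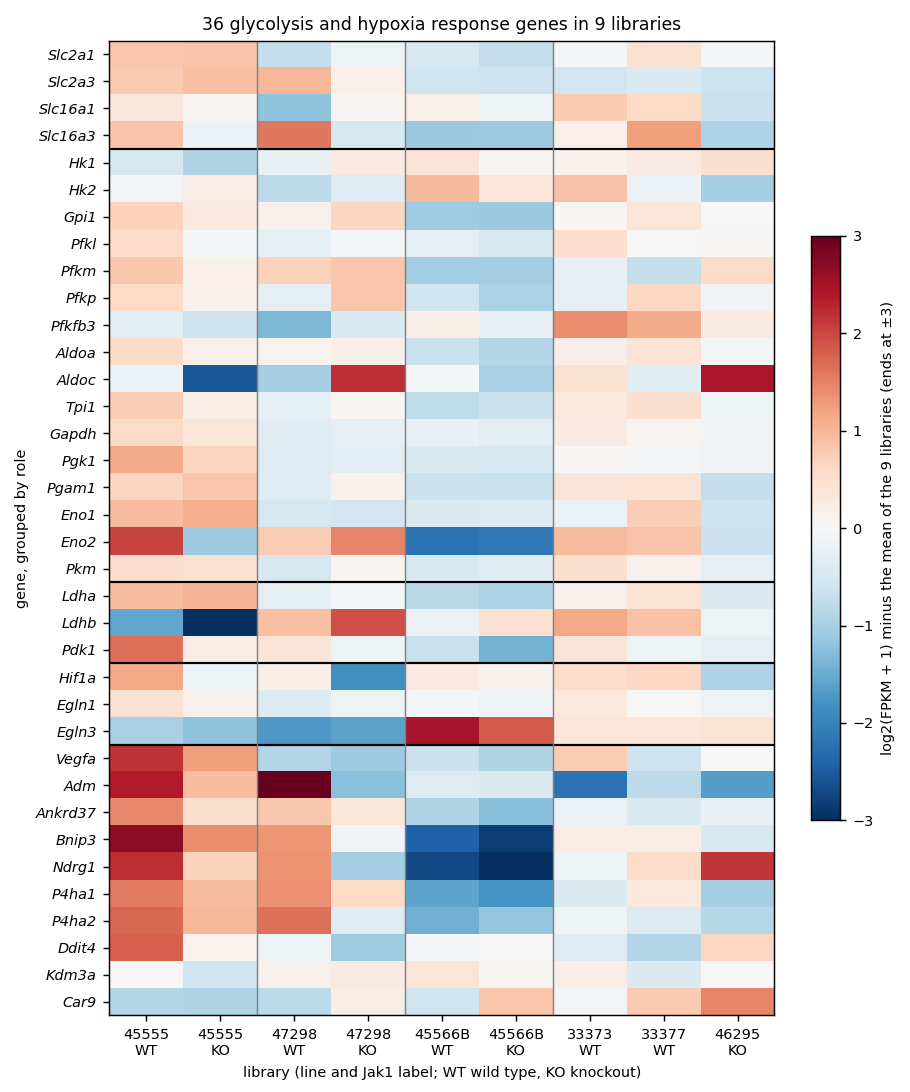
Heat map of the 36 genes (rows, grouped by role with black lines between groups) in the 9 libraries (columns), with colour giving log2(FPKM + 1) minus the gene's mean over the 9 libraries. The wild-type library of 45555 holds the highest value of 18 of the 36 genes, and the 2 libraries of 45566B together hold the lowest value of 17.

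The first comparison set knockout against wild type inside lines 45555, 47298 and 45566B, which asks what goes with the Jak1 label when the line is held constant. The 9 further HIF targets that could be tested were lower in knockout on average, whereas the glycolytic enzymes showed no common direction. Of the 9 further HIF targets tested, 9 had a negative fold change, with a median of -0.82 on the log2(FPKM + 1) scale, beside a median of -0.01 over all genes. The median was -0.46 without 45555, -1.31 without 45566B and -0.66 without 47298. In each single line 6 of them were lower in knockout, namely Vegfa, Adm, Ankrd37, Bnip3, Ndrg1 and P4ha1, against 13.3% of all genes, as were Hif1a and Pdk1, 8 of the 35 members in all. No member was higher in knockout in each line, against 14.3% of all genes. Of the 16 enzymes 9 had a negative and 7 a positive fold change, with a median of -0.03 (0.04 after quantile normalization), and 0 had the same direction in all 3 lines. Fold changes on this scale understate the change of low genes.

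No gene passed in this comparison. By limma, 0 of 12063 genes (0%) had an adjusted p under 0.05. The smallest adjusted p was 0.762, so no gene here is said to have changed. At an unadjusted p under 0.05 stood 224 genes lower in knockout (1.86%) and 182 higher (1.51%). Among the 35 members tested these were 5 lower and 0 higher, and the 5 were Bnip3, Pdk1, Ndrg1, Hif1a and P4ha1. Car9, also a further HIF target, had a mean under 1 FPKM over the 6 libraries and was not tested. Its difference was -0.04 in 45555, 0.99 in 47298 and 1.43 in 45566B, so it was higher in knockout in the last of these lines and in 47298. Without 47298, the line whose cell-type markers differed between its states, 7 of the 9 HIF targets were lower in knockout in both remaining lines, against 26.3% of all genes. That count was added after the data were seen. Of the cell-type markers, 9 of 10 mesenchymal and 6 of 6 adipocyte ones had a negative fold change over the pairs, with medians of -1.41 and -1.15. These medians came mainly from 47298. The mesenchymal median was -0.55 in 45555, -3.93 in 47298 and 0.04 in 45566B, and the adipocyte median was -0.04, -3.50 and -0.01. Of 10 epithelial markers 5 had a negative and 5 a positive fold change. The part of cell type in these differences was not tested.

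**Figure D2:**
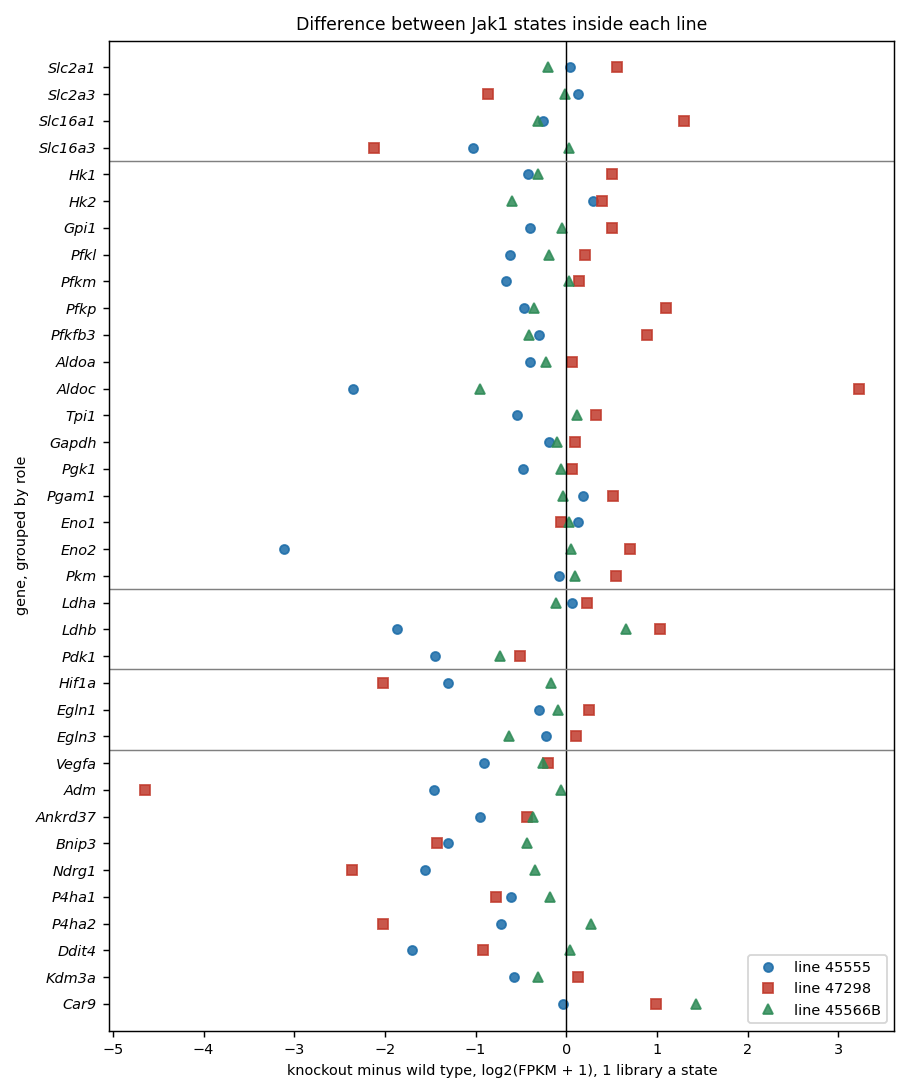
Knockout minus wild type on log2(FPKM + 1) for each of the 36 genes (rows, grouped by role) in lines 45555 (circles), 47298 (squares) and 45566B (triangles), with 1 library a state. The HIF targets at the bottom lie mostly left of 0, the enzymes from Hk1 to Pkm lie on both sides, and the triangles of 45566B lie closer to 0 than the symbols of the other lines for most genes.

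Hif1a, which encodes the oxygen-regulated HIF alpha subunit, stood at 119.9 against 47.7 FPKM (wild type against knockout) in 45555, 60.8 against 14.2 in 47298, and 65.9 against 58.7 in 45566B. In the lines with 1 state it was at 78.3 FPKM in 33373, 82.6 in 33377 and 27.8 in 46295 knockout. The 4 knockout values were under the 5 wild-type values, though 45566B knockout was only just below 47298 wild type. Such a complete separation was seen for 37 of 12198 genes (0.303%), and among the members for Hif1a alone, while 0 members showed the reverse (0.139% of all genes). Hif1a was also the 1 member lower at an unadjusted p under 0.05 over all 9 libraries, against 0.959% of all genes. That fit had no line block, so it ignored the pairing, and it reused the libraries of the pairs. The difference was -1.31 in 45555, -2.02 in 47298 and -0.16 in 45566B, and the fold change was -1.17 (SE 0.40) over the 3 pairs (limma, adjusted p = 0.762) and -1.25 (SE 0.40) over all 9 libraries (limma, adjusted p = 1.000). Without 47298 the fold change over the pairs was -0.74. The values of 33373 and 33377 lie inside the wild-type range, so leaving these lines out could not change the separation and is no check of it. Hif1a lies on chromosome 12 from 73901375 to 73947530 on the plus strand in mm10.

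The hydroxylases that act on HIF did not share this pattern. Egln1, the main oxygen sensor of the family, was at 34.6 FPKM as wild type and 27.9 as knockout in 45555, 18.4 and 22.2 in 47298, and 23.7 and 22.2 in 45566B, with 31.2 FPKM in 33373, 25.2 in 33377 and 22.4 in 46295 knockout, a narrower spread than that of Hif1a or Egln3. Egln3, a family member that is itself induced by HIF, stood at 13.5 against 11.4 FPKM (wild type against knockout) in 45555, 7.68 against 8.34 in 47298, and 158 against 102 in 45566B, and at 35.98 FPKM in 33373, 35.9 in 33377 and 37.6 in 46295 knockout. The 45566B libraries were the highest of all 9 for Egln3, and those of 47298 the lowest. Egln3 therefore took 87.0% and 82.1% of the summed Egln1 and Egln3 FPKM in wild-type and knockout 45566B, but 28.1% and 29.1% in 45555 and 29.4% and 27.3% in 47298.

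HIF binds a short core, ACGTG or GCGTG, and the bases upstream of the members were searched for it on both strands. RefSeq start sites on GRCm38.p6 were found for 34 of the 36 genes, with 50 windows of 250 bases before a start. At least 1 core lay in 39 of the 50 windows (78.0%), against 38.6% of all 32851 windows and 56.4% of the windows of genes that averaged 1 FPKM or more. Counted by gene, 31 of 34 members held a core in a window (91.2%), against 41.5% of all genes and 62.6% of the expressed ones, and all 9 of the further HIF targets with a window did so. In a wider list of other HIF targets the core lay in 62.9% of windows and 69.6% of genes, nearer to the expressed genes. The median GC content was 61.0% in the members' windows, 52.4% in all windows and 60.0% in those of the expressed genes. Printed here are 4 genes that were lower in knockout in each line and, for contrast, Pgk1, a glycolytic enzyme that was not. Each sequence runs 5′ to 3′ along the gene and ends at the base before the start site, with the cores of either strand in capitals (CACGT and CACGC are the cores read on the other strand, and CACGTG holds ACGTG on both). The windows are chr7:138909507-138909756 on the minus strand for Bnip3, chr7:110627407-110627656 on the plus strand for Adm, chr10:59323046-59323295 on the plus strand for P4ha1, chr2:71872974-71873223 on the plus strand for Pdk1 (the first of 2 start sites) and chrX:106186850-106187099 on the plus strand for Pgk1.
Bnip3: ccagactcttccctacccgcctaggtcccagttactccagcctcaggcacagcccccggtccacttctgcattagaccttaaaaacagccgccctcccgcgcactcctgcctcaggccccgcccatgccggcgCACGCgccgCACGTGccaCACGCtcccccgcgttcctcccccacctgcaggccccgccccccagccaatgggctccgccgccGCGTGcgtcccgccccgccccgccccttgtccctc
Adm: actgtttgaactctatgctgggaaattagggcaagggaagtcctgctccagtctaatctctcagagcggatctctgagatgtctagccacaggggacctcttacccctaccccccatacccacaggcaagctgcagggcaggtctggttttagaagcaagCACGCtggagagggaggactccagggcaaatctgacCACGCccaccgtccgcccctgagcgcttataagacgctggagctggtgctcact
P4ha1: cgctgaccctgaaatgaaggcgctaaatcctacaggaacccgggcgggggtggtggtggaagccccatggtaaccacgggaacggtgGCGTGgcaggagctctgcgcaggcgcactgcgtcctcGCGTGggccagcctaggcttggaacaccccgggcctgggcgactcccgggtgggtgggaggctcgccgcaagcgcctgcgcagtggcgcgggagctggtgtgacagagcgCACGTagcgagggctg
Pdk1: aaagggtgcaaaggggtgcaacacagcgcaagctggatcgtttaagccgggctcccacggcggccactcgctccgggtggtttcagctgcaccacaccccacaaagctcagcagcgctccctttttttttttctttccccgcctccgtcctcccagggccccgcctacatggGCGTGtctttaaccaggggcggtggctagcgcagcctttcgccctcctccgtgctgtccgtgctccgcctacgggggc
Pgk1: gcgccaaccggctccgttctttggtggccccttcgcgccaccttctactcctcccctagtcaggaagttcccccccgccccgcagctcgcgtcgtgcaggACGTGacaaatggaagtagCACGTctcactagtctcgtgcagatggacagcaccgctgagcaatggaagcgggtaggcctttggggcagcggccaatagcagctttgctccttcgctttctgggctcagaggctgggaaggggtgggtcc
By this search, which counts both strands, Bnip3 held 5 cores, P4ha1 3, Adm and Pgk1 2 each and Pdk1 1. A core in these letters is a description and no evidence of binding in these cells.

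Among the HIF targets, Bnip3, a mitochondrial protein that promotes the removal of mitochondria, had the smallest p of the members. It stood at 155 FPKM as wild type and 62.4 as knockout in 45555, 59.9 and 21.6 in 47298, and 3.51 and 2.35 in 45566B, and at 27.1 FPKM in 33373, 27.1 in 33377 and 16.3 in 46295 knockout. The knockout library was lower in each pair, but the level of 45566B wild type was below that of every knockout library of the other lines. Its fold change was -1.05 (SE 0.26) over the pairs (limma, adjusted p = 0.762).

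Ndrg1, a stress-induced gene of differentiation and a known hypoxia marker, was at 55.0 against 17.99 FPKM (wild type against knockout) in 45555, 29.4 against 4.90 in 47298, and 0.833 against 0.438 in 45566B. It was at 10.1 FPKM in 33373, 16.8 in 33377 and 52.3 in 46295 knockout, so that 46295 knockout nearly reached the highest wild-type value. Inside the lines its fold change was -1.43 (SE 0.44) (limma, adjusted p = 0.762). P4ha1, a collagen prolyl hydroxylase, was at 168 FPKM as wild type and 109 as knockout in 45555, 147 and 85.7 in 47298, and 18.04 and 15.8 in 45566B, with 41.1 FPKM in 33373, 70.7 in 33377 and 27.8 in 46295 knockout. Its differences were smaller, with a fold change of -0.52 (SE 0.19). P4ha2, the second such enzyme of the list, was at 143 against 86.2 FPKM (wild type against knockout) in 45555, 136 against 32.9 in 47298, and 15.3 against 18.7 in 45566B, so that in 45566B the knockout library was the higher one.

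Adm, which encodes the vasodilating peptide adrenomedullin, had the widest gap inside a line. Its level was 186 FPKM as wild type and 67.0 as knockout in 45555, 374 and 14.0 in 47298, and 26.4 and 25.3 in 45566B, and it was 6.66 FPKM in 33373, 19.6 in 33377 and 10.3 in 46295 knockout. The fold change of -2.05 (SE 0.95) rests largely on 47298, where the difference was -4.64, and it was -0.76 without that line. Vegfa, the main angiogenic growth factor, was at 89.6 against 47.2 FPKM (wild type against knockout) in 45555, 10.0 against 8.54 in 47298, and 12.0 against 9.90 in 45566B, and at 33.5 FPKM in 33373, 12.1 in 33377 and 19.0 in 46295 knockout. Its fold change over the pairs was -0.46 (SE 0.21), and -0.23 without 45555. Ankrd37, a small ankyrin repeat gene, was at 7.56 FPKM as wild type and 3.42 as knockout in 45555, 4.53 and 3.08 in 47298, and 0.695 and 0.315 in 45566B, with 1.79 FPKM in 33373, 1.31 in 33377 and 1.67 in 46295 knockout and a fold change of -0.59 (SE 0.23). It overlaps Ufsp2 on the opposite strand, which was at 17.3 to 51.4 FPKM, and the sources used here do not say whether the libraries kept the strand.

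The remaining HIF targets varied in direction. Ddit4, an inhibitor of mTOR complex signalling, was at 302 against 92.3 FPKM (wild type against knockout) in 45555, 78.2 against 40.9 in 47298, and 84.0 against 86.3 in 45566B, and at 65.1 FPKM in 33373, 46.1 in 33377 and 132 in 46295 knockout. It was lower in knockout in 45555 and 47298 and nearly level in 45566B, with a fold change of -0.86 (SE 0.38), which was -0.44 without 45555 and -1.31 without 45566B. Kdm3a, a histone demethylase, lay between 10.9 and 22.1 FPKM over the 9 libraries, with a fold change of -0.25 (SE 0.20), which was -0.09 without 45555 and -0.44 without 47298. Car9, the cell-surface carbonic anhydrase often used as a hypoxia marker, was low throughout, at 0.209 FPKM as wild type and 0.179 as knockout in 45555, 0.252 and 1.48 in 47298, and 0.471 and 2.96 in 45566B, and at 1.07 FPKM in 33373, 2.82 in 33377 and 5.12 in 46295 knockout. Its 2 highest libraries after 46295 knockout were 45566B knockout and 33377, so it did not follow the other targets.

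**Figure D3:**
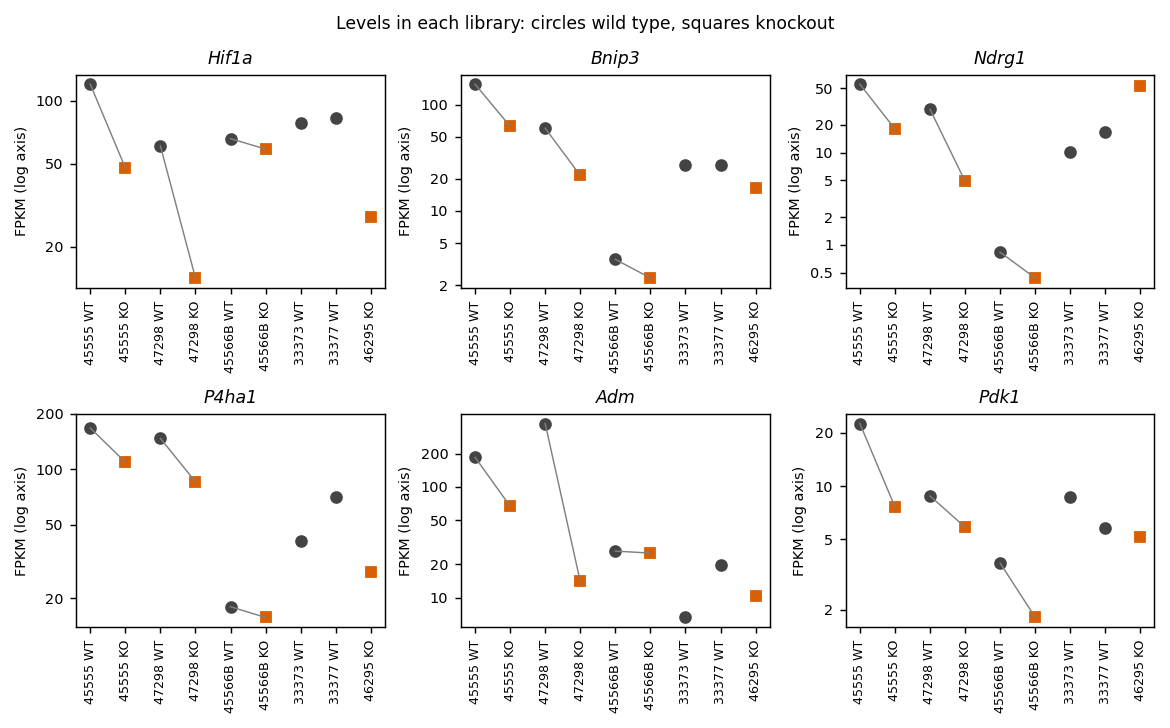
FPKM on log axes of Hif1a, Bnip3, Ndrg1, P4ha1, Adm and Pdk1 in each of the 9 libraries, with circles for wild type, squares for knockout and grey lines joining the 2 states of a line. The knockout library is the lower one in each of the 3 pairs for all 6 genes, and for Hif1a the 4 squares lie below the 5 circles.

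Of the enzymes that decide the fate of pyruvate, Pdk1 was the one that followed the HIF targets. Pdk1 encodes a kinase that shuts pyruvate out of the mitochondrion by inhibiting pyruvate dehydrogenase. It stood at 22.6 against 7.64 FPKM (wild type against knockout) in 45555, 8.80 against 5.87 in 47298, and 3.68 against 1.82 in 45566B, and at 8.72 FPKM in 33373, 5.77 in 33377 and 5.19 in 46295 knockout, with a fold change of -0.90 (SE 0.25) over the pairs (limma, adjusted p = 0.762). Ldha, the lactate dehydrogenase subunit that favours lactate production, was nearly level inside each line, at 1209 FPKM as wild type and 1261 as knockout in 45555, 522 and 609 in 47298, and 354 and 327 in 45566B, and at 684 FPKM in 33373, 837 in 33377 and 461 in 46295 knockout. Its difference was 0.06 in 45555, 0.22 in 47298 and -0.11 in 45566B.

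Ldhb, the subunit that favours the oxidation of lactate, was at 7.19 against 1.25 FPKM (wild type against knockout) in 45555, 44.6 against 92.1 in 47298, and 20.3 against 32.5 in 45566B, and at 52.7 FPKM in 33373, 43.5 in 33377 and 20.6 in 46295 knockout. It was lower in knockout in 45555 and higher in knockout in 47298 and 45566B. Ldhb therefore made up 0.591% and 0.0989% of the summed Ldha and Ldhb FPKM in 45555 without and with the knockout, 7.87% and 13.1% in 47298 and 5.42% and 9.03% in 45566B. The libraries of 45555 were the lowest of the 9 for this share, which was 7.16% in 33373, 4.94% in 33377 and 4.28% in 46295 knockout.

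The transporters at both ends of the pathway had no common direction between states. Slc2a1, the ubiquitous glucose transporter, stood at 75.6 FPKM as wild type and 77.7 as knockout in 45555, 25.4 and 37.9 in 47298, and 29.4 and 25.4 in 45566B, and at 41.6 FPKM in 33373, 58.9 in 33377 and 41.4 in 46295 knockout. Both 45555 libraries were above the other 7, and the states differed by 0.04 in 45555, 0.56 in 47298 and -0.20 in 45566B. Slc2a3, a high-affinity glucose transporter of neurons, was low everywhere. It was at 1.63 FPKM as wild type and 1.88 as knockout in 45555, 2.07 and 0.694 in 47298, 0.0130 in 45566B wild type, 0.0263 in 33373 and 0.135 in 33377, and was listed at 0 in 45566B knockout and 46295 knockout.

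Slc16a3, the lactate exporter of highly glycolytic cells and a HIF target, was at 2.99 against 0.953 FPKM (wild type against knockout) in 45555, 5.57 against 0.515 in 47298, and 0.0111 against 0.0337 in 45566B, and at 1.43 FPKM in 33373, 4.28 in 33377 and 0.161 in 46295 knockout. Its fold change was -1.04 (SE 0.49) over the pairs (limma, adjusted p = 0.762), with the 45566B pair near 0 in both states, and -1.57 without 45566B. Slc16a1, the lactate carrier present in most tissues, was at 31.0 FPKM as wild type and 25.7 as knockout in 45555, 9.92 and 25.8 in 47298, and 27.1 and 21.6 in 45566B, and at 42.5 FPKM in 33373, 37.2 in 33377 and 15.0 in 46295 knockout, with the knockout lower in 45555 and 45566B and higher in 47298. As a share of the 2 carriers, Slc16a3 went from 35.9% in 47298 wild type to 1.96% in 47298 knockout, and from 8.81% to 3.57% in 45555. In 45566B it was 0.0411% and 0.156%, the higher value being that of the knockout. With 1 added to each FPKM the share in 47298 knockout was 5.35%.

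The glycolytic enzymes themselves spanned a fold change from -0.79 for Eno2, the neuron-type enolase, to 0.22 for Pgam1, phosphoglycerate mutase. In 45555 13 of the 16 were lower in knockout, with a median of -0.41, and in 45566B 11 were lower, with a median of -0.08. In 47298, by contrast, 15 of the 16 were higher in knockout, with a median of 0.45. Differences of at least 1 unit of log2(FPKM + 1), with 1 library a state, were counted in each line. In 45555 10 of 35 members were lower by that much (against 6.68% of all genes) and 0 higher (against 3.2%). In 47298 6 of 35 were lower by that much (against 11.0%) and 4 higher (against 8.49%), the 4 being Pfkp, Aldoc, Ldhb and Slc16a1. In 45566B 0 were lower (against 2.17%) and 0 higher (against 0.854%). Over all genes tested the medians were -0.03, 0.01 and 0.01. Whether the lines differ in these responses was not tested, since each has 1 library a state. The fold change of Eno2 was positive, at 0.37, without line 45555, and -1.53 without 47298, and that of Pgam1 was 0.07 without 47298.

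The abundant housekeeping isoenzymes each differed by less than 1 unit of log2(FPKM + 1) inside every line. Aldoa, the muscle and general aldolase, was at 1119 against 849.6 FPKM (wild type against knockout) in 45555, 824 against 862 in 47298, and 485 against 415 in 45566B, and at 889 FPKM in 33373, 1033 in 33377 and 747 in 46295 knockout. Pgam1 was at 481 FPKM as wild type and 545 as knockout in 45555, 233 and 333 in 47298, and 196 and 192 in 45566B, and at 404 FPKM in 33373, 407 in 33377 and 187 in 46295 knockout. For Gapdh, Pgk1, Tpi1, Gpi1 and Pkm, which carry out steps shared by all tissues, the differences ran from -0.54 (Tpi1 in 45555) to 0.55 (Pkm in 47298). Pkm, whose 2 splice forms cannot be told apart in a value per gene, stood between 679 FPKM (47298 wild type) and 1369.8 (45555 wild type). Eno1, the general enolase, has a near-identical copy, Eno1b, listed at 55.1 to 211 FPKM, and how the authors' counting split reads between them is not given, so the level of Eno1 is uncertain.

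The low, tissue-restricted isoenzymes varied most. Aldoc, the brain-type aldolase, was at 4.68 against 0.111 FPKM (wild type against knockout) in 45555, 2.21 against 29.0 in 47298, and 5.31 against 2.26 in 45566B, and at 7.86 FPKM in 33373, 4.001 in 33377 and 33.6 in 46295 knockout. It was lower in knockout in 45555 and 45566B and higher in knockout in 47298, so its difference of 3.22 in 47298 was offset by -2.35 in 45555. Eno2 was at 23.2 FPKM as wild type and 1.80 as knockout in 45555, 9.08 and 15.3 in 47298, and 0.283 and 0.329 in 45566B, and at 10.5 FPKM in 33373, 9.73 in 33377 and 2.75 in 46295 knockout. The most negative difference of the 16 inside a line was that of Eno2 in 45555, and the 45566B pair held the lowest values.

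At the irreversible steps, Hk1, the constitutive hexokinase, exceeded Hk2, the inducible and HIF-responsive one, in every library. The Hk2 share lay between 4.23% (46295 knockout) and 23.6% (45555 knockout). Of the phosphofructokinases the liver type Pfkl was the most abundant in 8 of the 9 libraries, the exception being 47298 knockout, where the platelet type Pfkp stood at 60.3 FPKM and Pfkl at 59.8. Pfkl itself was at 93.1 against 60.1 FPKM (wild type against knockout) in 45555, 51.7 against 59.8 in 47298, and 51.4 against 44.8 in 45566B, and at 89.6 FPKM in 33373, 63.1 in 33377 and 64.0 in 46295 knockout. The muscle type Pfkm took 8.01% (33377) to 26.2% (47298 wild type) of the 3. Pfkfb3, which makes the activator of phosphofructokinase, was at 4.96 FPKM as wild type and 3.84 as knockout in 45555, 1.95 and 4.46 in 47298, and 7.58 and 5.44 in 45566B, and at 18.7 FPKM in 33373, 15.2 in 33377 and 8.04 in 46295 knockout. Both wild-type-only lines had the highest Pfkfb3 levels, and in 47298 the knockout level was the higher one, with differences on the log2(FPKM + 1) scale of -0.30 in 45555, 0.89 in 47298 and -0.41 in 45566B.

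**Figure D4:**
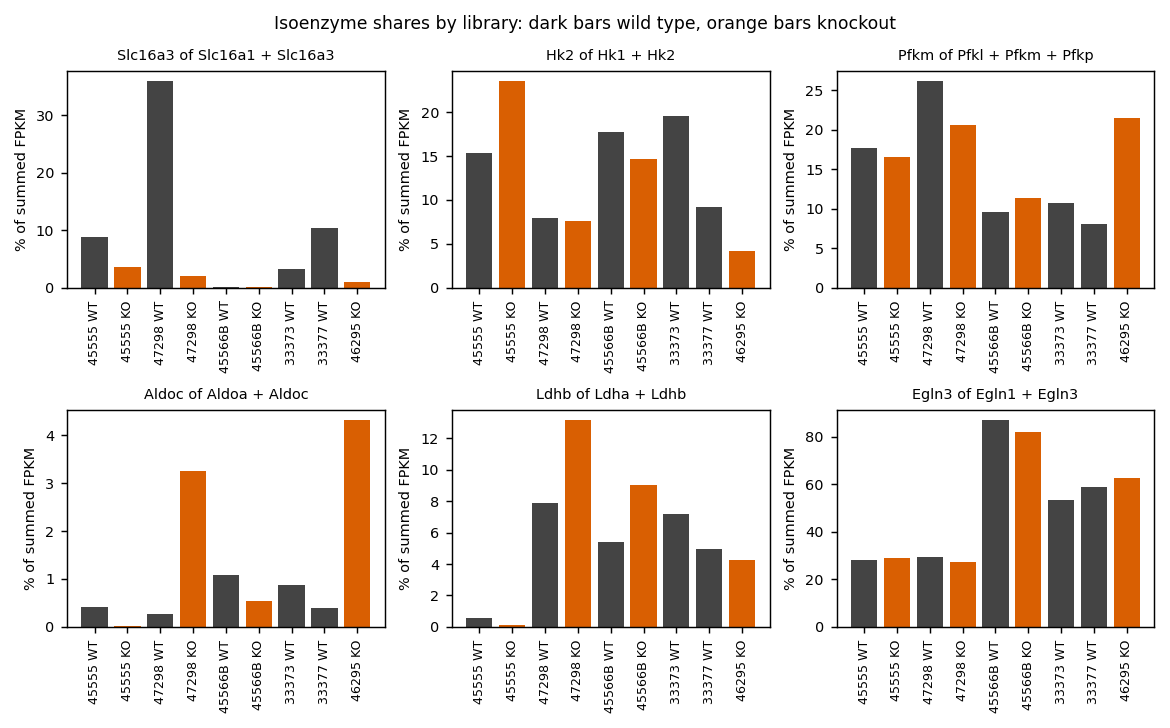
Share of 1 isoenzyme in the summed FPKM of its family (percent, each axis from 0) for Slc16a3, Hk2, Pfkm, Aldoc, Ldhb and Egln3 in the 9 libraries, with dark bars for wild type and orange bars for knockout. The Slc16a3 share is highest in 47298 wild type, the Ldhb share is lowest in the 2 libraries of 45555, and the Egln3 share is highest in the 2 of 45566B.

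The second comparison asked which members differed between lines 45555, 47298 and 45566B once the Jak1 label was fitted. The wild-type and knockout libraries of a line stood in for its replicates, so no repeated culture lies behind this test. Here 1694 of 12063 genes passed limma's test with adjusted p below 0.05 (14.0%), and 10 of the 35 members tested (28.6%). Of the HIF targets outside glycolysis 5 of 9 differed, namely Vegfa, Ankrd37, Bnip3, Ndrg1 and P4ha1, as did Egln3, Ldha, Pdk1, Eno1 and Pfkm. The smallest adjusted p was that of Egln3 (0.00983), followed by Bnip3 (0.0109) and P4ha1 (0.0124), and Pdk1 was at the threshold (0.0499), all by limma. Of the 16 glycolytic enzymes 2 differed (12.5%), a share near the background. With line 45566B left out 0 of all genes were called between 45555 and 47298, with 45555 left out 276 genes and 1 member, Egln3, and with 47298 left out 3515 genes and 20 members.

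Line 45566B was the low one for more members than 45555 or 47298 was. Both of its libraries lay below the other 4 for 18 of the 35 members tested, against 24.9% of all genes, and above them for 3, namely Egln3, Hk2 and Pfkfb3, against 22.9%. Set against all 7 other libraries, both 45566B libraries were lowest for 16 of 35 members, against 12.8% of all genes, and highest for Egln3 alone, against 11.6%. The 16 were 8 enzymes (Gpi1, Pfkl, Pfkm, Pfkp, Aldoa, Tpi1, Pgk1 and Eno2), Ldha and Pdk1, the lactate exporter Slc16a3, and Ankrd37, Bnip3, Ndrg1, P4ha1 and P4ha2. Line 45555 was the high one, with both libraries above the other 4 for 13 members, against 13.4%, among them Slc2a1, Pgk1, Ldha, Vegfa and Bnip3, and below them for 3 (against 15.8%). Both 47298 libraries lay below the other 4 for 5 members (Hk2, Eno1, Egln1, Egln3 and Ddit4, against 13.7%) and above them for Ldhb alone (against 13.2%). The epithelial marker sum separated these lines as well, with 3141 and 3154 FPKM in 45566B against 7.18 and 7.50 in 45555 and 100.1 and 415 in 47298, and the part of cell type in the line differences was not tested.

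The third comparison set the knockout libraries of 45566B and 46295 against the wild-type libraries of 45566B, 33373 and 33377, where the line and the Jak1 label cannot be told apart outside 45566B. The members were mostly lower in knockout, with a median fold change of -0.35 over the 35 tested, beside 0.02 over all genes. The median was 0.14 without 33373 and 33377, the opposite sign. The further HIF targets had 6 negative and 4 positive fold changes, with a median of -0.13, or 0.34 without those lines. The glycolytic enzymes had 13 negative and 3 positive ones, with a median of -0.38, or 0.10 without them. The median of the HIF targets was also positive without 33373 alone (0.06) and without 45566B knockout (0.17). All 9 epithelial markers tested had a positive and all 9 mesenchymal ones a negative fold change here, with medians of 1.90 and -2.50, and their part in the result was not tested. This comparison shares the 45566B libraries with the pairs.

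By limma 0 of 11838 genes passed here (0%, smallest adjusted p 0.0749; 157 genes lower and 58 higher at an unadjusted p under 0.05, 1.33% and 0.49%), and Slc2a3 was too low to be tested. The knockout values were under all 3 wild-type values for 4 of 35 members, namely Slc16a1, Hif1a, Pgam1 and Egln1, against 6.43% of all genes. They lay above for Ddit4 and Car9, against 7.67%. Slc16a1 was at 27.1, 42.5 and 37.2 FPKM in 45566B wild type, 33373 and 33377, and at 21.6 and 15.0 in 45566B and 46295 knockout, a fold change of -0.92 (SE 0.31) (limma, adjusted p = 0.999). That of Hif1a was -0.88 (SE 0.37), that of Ddit4 0.75 (SE 0.36) and that of Car9 1.12 (SE 0.54), each with the same adjusted p of 0.999 by limma. Without 46295 the fold change of Hif1a was -0.35 and that of Ddit4 0.44, and without 45566B knockout that of Hif1a was -1.40. Without both 33373 and 33377 it was -0.57 for Slc16a1, 0.34 for Ddit4 and 1.74 for Car9. For Ddit4 this direction is the reverse of that seen in 45555 and 47298.

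Other genes of the pathway, listed by role with earlier results of these data known, gave a mixed picture. Of 34 further HIF targets 31 were tested in the pairs, with 19 negative and 12 positive fold changes and a median of -0.24. In each of the 3 lines 7 of them were lower in knockout, 22.6% against 13.3% of all genes, and 3 higher, against 14.3%. Between the lines, limma's test was passed by 11 of the 31, 35.5% against 14.0% of all genes. Nampt, the enzyme that salvages nicotinamide for NAD synthesis, stood at 45.5 against 22.7 FPKM (wild type against knockout) in 45555, 30.8 against 8.65 in 47298, and 46.0 against 19.0 in 45566B, and at 30.1 FPKM in 33373, 39.7 in 33377 and 13.2 in 46295 knockout. As for Hif1a, the 4 knockout values were under the 5 wild-type values, and the fold change was -1.31 (SE 0.21) over the pairs (limma, adjusted p = 0.762). Gys1, a glycogen synthase, had a fold change of -0.50 (SE 0.19).

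Of the 9 tested genes of the HIF machinery none was at an unadjusted p under 0.05 in the pairs (limma; 0 at an adjusted p under 0.05). Arnt, the constant HIF partner, was at 28.3 FPKM as wild type and 16.5 as knockout in 45555, 30.3 and 18.1 in 47298, and 11.3 and 11.8 in 45566B, and Epas1, the alternative alpha subunit, at 2.14 against 0.587 FPKM (wild type against knockout) in 45555, 8.11 against 2.02 in 47298, and 2.98 against 4.17 in 45566B. Both were lower in knockout in 45555 and 47298 and not in 45566B. Hif1an, an asparaginyl hydroxylase that blocks HIF activity, had a fold change of 0.14 (SE 0.18). Txnip, an inhibitor of glucose uptake that responds to glucose, stood at 241 FPKM as wild type and 63.8 as knockout in 45555, 367 and 100.3 in 47298, and 54.2 and 46.8 in 45566B, and at 10.6 FPKM in 33373, 46.3 in 33377 and 232 in 46295 knockout, with a fold change of -1.32 (SE 0.42) inside the lines and one of 1.76 (SE 0.98) in the third comparison (limma, adjusted p = 0.762 and 0.999). Of the same list, Mlxip, a glucose-sensing transcription factor, had a fold change of -0.13 (SE 0.16) and Myc, a driver of glycolytic gene expression, one of -0.29 (SE 0.36) inside the lines.

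The oxidation and the side branches of the pathway leaned both ways. Pdp1, the phosphatase that reverses the action of Pdk1, was at 8.78 against 5.37 FPKM (wild type against knockout) in 45555, 24.9 against 2.67 in 47298, and 5.61 against 4.47 in 45566B, and Pcx, pyruvate carboxylase, had a fold change of -0.52 (SE 0.25). Pck2, the mitochondrial enzyme that makes phosphoenolpyruvate, was at 123 FPKM as wild type and 81.2 as knockout in 45555, 51.3 and 13.3 in 47298, and 10.9 and 10.9 in 45566B. The pentose phosphate branch had 5 positive and 2 negative fold changes among its 7 genes, with a median of 0.16. Taldo1, transaldolase, was at 131 against 262 FPKM (wild type against knockout) in 45555, 104 against 228 in 47298, and 269 against 265 in 45566B, while Rpe, ribulose phosphate epimerase, had a fold change of 0.32 (SE 0.20) and Tkt, transketolase, one of 0.44 (SE 0.30). Of 18 further glycolytic genes, many of them tissue-restricted, 8 were tested, with 6 positive and 2 negative fold changes. Eno3, the muscle enolase, had a fold change of -0.41 (SE 0.19) and Bpgm, bisphosphoglycerate mutase, one of 0.53 (SE 0.27), and Adpgk, an ADP-dependent glucokinase, one of 0.42 (SE 0.28). The 7 proliferation markers, by comparison, were all positive over the pairs, with a median of 0.60, and summed to 367 and 797 FPKM in 45555 without and with the knockout, 186 and 334 in 47298 and 891 and 883 in 45566B.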

How the data were processed

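RNA was sequenced in 9 libraries (5 wild type, 4 knockout). The deposited values are FPKM per gene symbol, for which the authors' tools were Cuffnorm, Cufflinks 2.2, TopHat2 2.1 and cutadapt, with mm10, per the submitters' processing notes. Their order, the annotation and the scaling option are not stated in what was used here. The 4-library table held values identical to those of the 9-library table, which was used. Of 24346 rows, 4 with a repeated symbol were left out. The columns of 33373 and 33377 lack a suffix that the other 7 carry, so whether all 9 came from 1 run is unknown, and the third comparison is also given without them.

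FPKM hold no counts, so limma 3.58.1 (R 4.3.3) was run on log2(FPKM + 1) for genes averaging 1 FPKM or more in the libraries compared, two-sided, with variances that follow the mean and Benjamini-Hochberg adjustment over all these genes. The pairs had the line as a block. The pairing comes from the line named in the titles, and deviations from the group means correlated inside each line, at 0.700 (45555), 0.399 (47298) and 0.804 (45566B). The highest correlation of each wild-type library with the knockout of another line was -0.005 (45555), 0.268 (47298) and -0.255 (45566B). The pairing is thus least marked for 47298. The line comparison was the F test of the line in the same fit, and the third comparison had no block. Depth is known only relative to 45566B wild type, so no counting error is given.

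The members and lists were chosen with earlier results of these data known. Values in all libraries were given for members with the smallest p in the pairs (up to 4 a role) or the widest spread (up to 2 more), with other members by range. Of the wider lists the 3 genes with the smallest p were named, except 1 that is not reported here, and the values of Ddit4, P4ha2 and Car9 and the sequences shown were chosen after they were seen. Alternatives were the pseudocount, the filter, the scaling, the variance trend, the block and the libraries. Positions are from GENCODE vM21 and upstream sequences from RefSeq (GRCm38.p6), both the mm10 build.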

Additional observations from a re-analysis of the deposited data

Results flagged for a closer look

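Among the knockout libraries 45555 stood apart from the other 3 for 2 members. For Eno1 it was the highest on log2(FPKM + 1), and its gap to the next library took 0.882 of the range of the 4 libraries. The levels were 698 FPKM in 45555 knockout against 219 in 47298, 247 in 45566B and 215 in 46295. For Egln1 the gap took 0.963 of the range, with 27.9 FPKM against 22.2, 22.2 and 22.4. The Egln1 values of the other 3 lie within 1 FPKM of each other, so the gap is small in size. In all, 72 groups of libraries were looked at and 2 met this mark, where chance gives about 1 in 20.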

How the results depend on the processing

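In the pairs the count of members called was 0 under all 11 alternatives, among them the fits with no replicate block (0 genes called) and over all 9 libraries, and the count of genes called was 0 to 6 when a line was left out (6 without 47298). The median fold change of the further HIF targets stayed negative, from -1.31 without 45566B to -0.45 over all 9 libraries, and Hif1a stayed between -1.67 and -0.74, Bnip3 between -1.37 and -0.87. The median of the glycolytic enzymes took either sign, from -0.29 without 47298 to 0.16 without 45555. The sign turned for Eno2 without 45555 (0.37), where the lowest value over the lines left out was -1.53, and over all 9 libraries for Pgam1 (-0.19) and Txnip (0.26); the cause was not tested.

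In the third comparison 4 genes were called with a pseudocount of 0.1 in place of 1, and 0 members. Between lines, leaving out a line gave 0 to 3515 genes and 0 to 20 members called. With no filter on low values 5 members were called, and the cause of that lower count was not tested. Another scaling or no variance trend changed no count by over 1.5 times. The fragments behind a value are unknown, which limits the precision of low genes such as Car9, Slc2a3 and Slc16a3.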
